A study of Homo sapiens with 5 samples.

Results

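The sites described here are places inside genes, far from any start of transcription, where HSF1 was called in both replicates and MYC in neither. On chromosomes 1 to 22, X and Y the lists held 6421 and 4459 peaks for HSF1 replicates 1 and 2 and 25623 and 13278 for MYC. The 2 HSF1 peak lists were merged wherever peaks shared 1 bp, which gave 8681 intervals. A peak of both replicates was present in 2141 of them. Of these, 738 overlapped no peak of either MYC list. Of those, 557 had a midpoint more than 3 kb from every start site of a GENCODE 44 protein-coding or lncRNA transcript, and 269 of the 557 lay inside the body of such a gene. The number depends on the lists used, being 701 without HSF1 replicate 1, 895 without HSF1 replicate 2, 493 without MYC replicate 1 and 273 without MYC replicate 2. These 269 members were selected on HSF1 calls, MYC calls and distance to start sites, so those values describe them and are not findings. MYC peaks were called at a p-value of 1e-10 and HSF1 peaks at 1e-04, so a member is a site where MYC was not called at the stricter threshold, not one shown to lack MYC.

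The data were CUT&RUN libraries of OVCAR8, an ovarian carcinoma cell line kept without treatment, with 2 libraries each for antibodies to HSF1 and MYC and 1 IgG library against which all peaks were called. In CUT&RUN an antibody brings a nuclease to the chromatin of permeabilised cells, and the DNA it releases is sequenced. After duplicate fragments were reduced to 1 copy, the libraries held 10042269 and 8721440 fragments for HSF1 replicates 1 and 2, 8265647 and 10084407 for MYC, and 9306942 for IgG. The labels do not say whether replicates came from separate cultures, all libraries come from 1 cell line that carries extra copies of both the HSF1 and MYC genes, and no expression was measured in these libraries.

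HSF1 is the main transcription factor of the heat shock response. It binds as a trimer to the heat shock element, a row of GAA units that alternate in orientation with a pair of free bases between units, and each unit takes up the DNA-binding domain of 1 HSF1 molecule. Its best known targets are chaperone genes, where the element lies close to the start of transcription. MYC binds as a dimer with MAX to the E-box, mostly at promoters. AP-1 is a family of FOS and JUN dimers that marks many enhancers of epithelial cells.

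The element was searched on both strands as GAANNTTCNNGAA, 3 units over 13 bases. In 136 of the 269 members it occurred somewhere in the merged interval, against 25.2% of all 2141 reproducible HSF1 intervals. Rows longer than 3 units were found within the intervals of 11 members, 5 of them with 4 units, 4 with 5 units and 2 with 6 or more. The longest row had 10 units in intron 1 of GNG7, a G-protein gamma subunit, and a further member in the same intron had 5 units inside the interval. The following stretches of GRCh38, plus strand, show rows of 10, 5 and 4 units in introns, with the units inside the interval and the bases between them in capitals and 25 bases on either side in lower case.

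GNG7, chr19:2678283-2678380: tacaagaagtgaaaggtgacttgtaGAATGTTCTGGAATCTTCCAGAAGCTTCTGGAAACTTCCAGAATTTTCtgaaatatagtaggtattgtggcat
GNG7, chr19:2679617-2679689: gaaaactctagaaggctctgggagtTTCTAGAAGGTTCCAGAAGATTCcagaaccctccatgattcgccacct
WNT3, chr17:46786809-46786881: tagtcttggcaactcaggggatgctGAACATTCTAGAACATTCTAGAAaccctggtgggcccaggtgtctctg
ZNF618, chr9:113936405-113936477: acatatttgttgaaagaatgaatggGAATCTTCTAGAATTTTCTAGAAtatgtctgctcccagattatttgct
CPAMD8, chr19:17021321-17021393: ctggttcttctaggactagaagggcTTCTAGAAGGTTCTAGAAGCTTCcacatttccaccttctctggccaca
TIAM1, chr21:31526343-31526410: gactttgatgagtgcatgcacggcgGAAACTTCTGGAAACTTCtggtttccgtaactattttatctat

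The next set holds elements of 5 of the 15 members with the highest mean fold enrichment, on the same strand and with the same use of capitals. In the whole intervals of these 5 members no row of more than 3 exact units was found.

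RNF32-DT, chr7:156493754-156493816: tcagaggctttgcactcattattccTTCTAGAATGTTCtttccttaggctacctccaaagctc
ENSG00000285216, chr6:8178017-8178079: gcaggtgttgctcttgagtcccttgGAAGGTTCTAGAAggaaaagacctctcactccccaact
WNT3, chr17:46782464-46782526: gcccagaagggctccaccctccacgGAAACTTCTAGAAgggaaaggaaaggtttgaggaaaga
SNX29, chr16:12320583-12320645: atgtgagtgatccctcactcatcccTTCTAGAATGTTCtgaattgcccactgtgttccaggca
PARD3, chr10:34739646-34739708: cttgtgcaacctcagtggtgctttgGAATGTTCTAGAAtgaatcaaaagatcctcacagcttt

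Fold enrichment is the caller's ratio of HSF1 fragments to its estimate of the IgG background at a peak's summit. In replicate 1 the members in AANAT, AOPEP and PCDH9 each had 14.4 at 22 fragments, so equal counts of fragments can give equal values. The median fold enrichment was 6.42 in HSF1 replicate 1 (range 3.30 to 48.6) and 6.99 in replicate 2 (range 3.48 to 52.6). The middle 50% of members lay between 4.98 and 8.66 in replicate 1 and between 5.56 and 9.41 in replicate 2. Most members were therefore modest peaks, with a median pileup at the summit of 12 fragments in each replicate. Other HSF1 sites had similar median fold enrichments in replicates 1 and 2. These were 6.25 and 6.19 at distal intragenic sites with MYC and 5.60 and 6.19 at distal intergenic sites without MYC. Within 3 kb of a start site without MYC they were 6.50 and 7.64, so modest peaks were not particular to the members. Replicate 2 was higher at 156 members, and 243 members were within 2-fold of each other in the replicates. Over the 269 members the log2 values of the replicates had a Pearson r of 0.522 and a Spearman rho of 0.455, a description across sites of 1 cell line that share the IgG library. In 28 members both replicates reached a fold enrichment of 10, and in 93 (34.6%) both reached a p-value of 1e-10. The matching shares over all reproducible HSF1 intervals were not computed, so nothing is read from these counts.

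**Figure D1:**
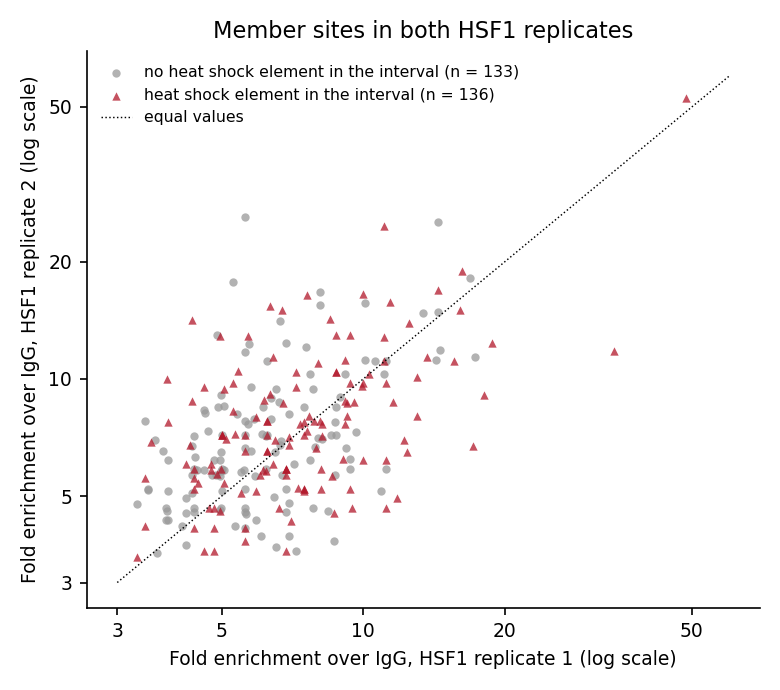
Fold enrichment over IgG of the 269 members in HSF1 replicate 1 (horizontal) and replicate 2 (vertical), both on log scales, with 1 point per site. Triangles are the 136 members with a heat shock element in the interval and circles the 133 without. Most sites of both kinds overlap, members without an element reach 17.3 in replicate 1 and 26.1 in replicate 2, and the member in RNF32-DT, with an element, is at 48.6 and 52.6.

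The member with the highest fold enrichment lay in intron 2 of RNF32-DT, a lncRNA gene on chromosome 7, from 156493082 to 156494333, at 48.6 in replicate 1 and 52.6 in replicate 2. Its pileup was 77 and 80 fragments, and the nearest MYC peak was 10.5 kb away. A second member in the same intron had 6.25 and 11.1. The highest value of any other member was 34.2 in replicate 1 and 26.1 in replicate 2.

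The next members differed more between the libraries. A site in the lncRNA gene ENSG00000285216 on chromosome 6 had 34.2 and 11.8. At AANAT, which encodes an enzyme of melatonin synthesis, the values were 14.4 and 25.3. EFEMP1, an extracellular matrix protein, had 5.62 in replicate 1 and 26.1 in replicate 2, so its place among the highest members rests on replicate 2. STK4, a kinase of the Hippo pathway, had 11.1 and 24.7 over an interval of 2460 bp that held a pair of elements.

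Other members of high fold enrichment were mostly closer between the libraries. ZDHHC20, a palmitoyltransferase, had 16.9 and 18.2, and CNPY1 had 16.2 and 18.9. AOPEP, an aminopeptidase, had 14.4 and 16.9, and SNX29, a sorting nexin, had 16.1 and 15. PCDH9, a protocadherin, had 14.4 and 14.9 at a site 190 kb from the nearest start site, the farthest of all members. RFLNA, an actin regulator that works with filamins, had 13.4 and 14.8. A further set was higher in replicate 1. WNT3, a secreted signalling ligand, had 18.8 and 12.4 at the higher of its 2 members, GNAQ, a G-protein alpha subunit, had 17.3 and 11.4, and PARD3, a polarity protein, had 18.1 and 9.12. The reverse held for KDM1B, a histone demethylase, with 11.4 and 15.8. Of the 15 members with the highest mean, 9 held a heat shock element somewhere in the interval and 6 did not (AANAT, ZDHHC20, EFEMP1, PCDH9, GNAQ and RFLNA).

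Members with long rows of units had moderate fold enrichment. The 10-unit row of GNG7 had 7.87 and 7.79, and the 5-unit row beside it had 3.44 and 5.56. The lowest values in replicate 1 after GNG7 were 4.37 at the 4-unit row of the lncRNA gene ENSG00000260573 and 5.00 at the 5-unit row of CPAMD8. TIAM1, an activator of the small GTPase RAC1, had 6.33 and 15.4, ANO1, a chloride channel, 11.8 and 4.95, and ZNF618 5.91 and 8.

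To compare sites at one width, motifs were counted in the 200 bp centred on the summit of the replicate with the higher fold enrichment. Here 69 of 269 members (25.7%, 95% Wilson interval 20.8 to 31.2%) held the heat shock element, against 10% of all reproducible HSF1 sites. The share was 29.4% with the summits of replicate 1 and 21.2% with those of replicate 2, and in 31 members the element was within 100 bp of both. When 1 library was left out and the sites were chosen anew, the share was 12.7% without HSF1 replicate 1, 14.6% without HSF1 replicate 2, 15.4% without MYC replicate 1 and 25.6% without MYC replicate 2. Among the 538 windows of the same width centred 1000 bp to either side of the members' summits, 4 held it (0.743%). Of 6919141 windows of 200 bp that tile the same genomic space, gene bodies more than 3 kb from a start site, 0.291% held it. Allowing 1 mismatch in the 9 fixed bases raised the members' share to 46.5%.

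Distal intragenic HSF1 sites that did overlap a MYC peak held the element less often, at 18 of 450 (4.0%, 95% Wilson interval 2.55 to 6.23%). The odds ratio of members against these was 8.28 (Fisher's exact test, two-sided, adjusted p = 1.34e-16, Benjamini-Hochberg over 6 motif comparisons). Sites are not replicates, so this p describes these peak lists, and it stayed past the threshold with either replicate's summits and in each of the 22 alternatives tried, with odds ratios of 3.56 to 11.3. The share did not fall in steps with the number of MYC lists that overlapped: it was 3.51% of 228 sites that met a peak of 1 MYC list and 4.50% of 222 that met both. The members' windows had less G and C, with a median of 42.5% against 47.5%. Within windows of 40 to 50% GC, 25 of 109 members (22.9%) and 3 of 189 MYC-overlapping sites (1.59%) held the element. Below 40% the shares were 28.3% and 10.3%, and from 50% upward 26.2% and 4.15%.

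**Figure D2:**
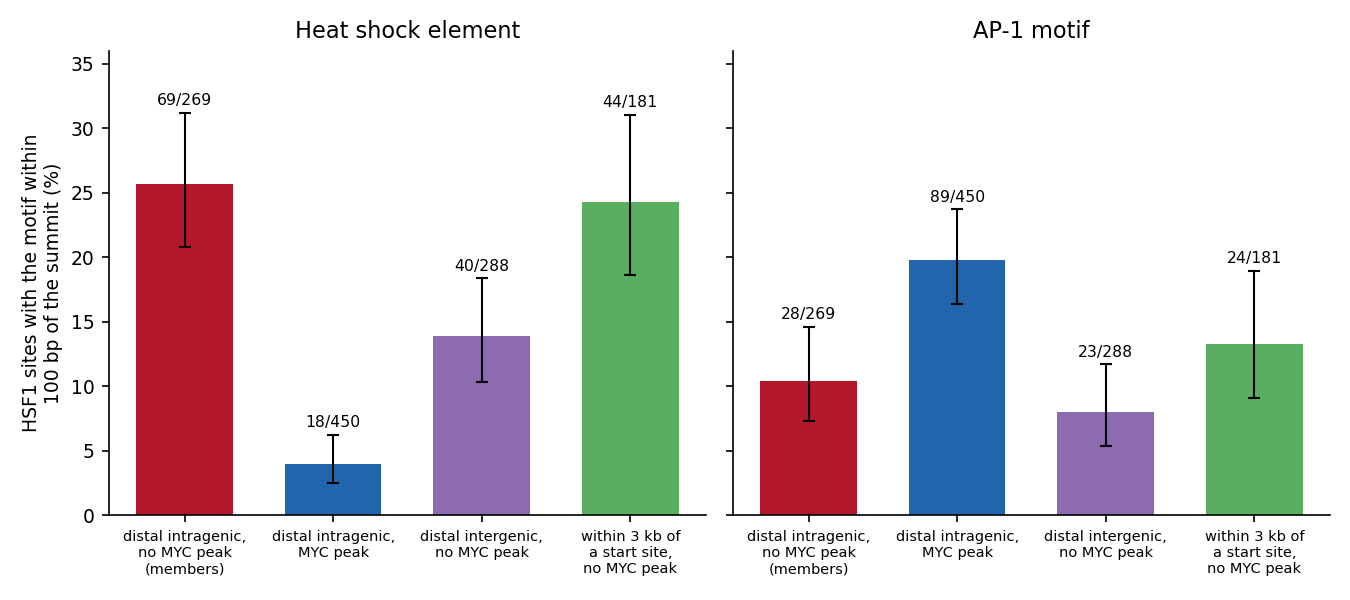
Percent of HSF1 sites with a heat shock element (left) or an AP-1 motif (right) within 100 bp of the summit in 4 sets of reproducible HSF1 sites, with 95% Wilson intervals and counts above the bars. For the heat shock element the members and the sites within 3 kb of a start site stand at 25.7% and 24.3%, and the sites with a MYC peak at 4.0%.

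Against HSF1 sites without MYC within 3 kb of a start site, where 44 of 181 (24.3%) held the element, the odds ratio was 1.07 (Fisher's exact test, two-sided, adjusted p = 0.825), and the intervals of the shares, 20.8 to 31.2% and 18.6 to 31.1%, overlap almost entirely. With peaks of HSF1 replicate 1 alone the odds ratio was 0.673 (same exact test, adjusted p = 0.0173). With peaks of replicate 2 alone it was 1.35 (same exact test, adjusted p = 0.179) and in the union of the replicates 0.998 (same exact test, adjusted p = 1). Distal intergenic sites without MYC held the element in 40 of 288 cases (13.9%), an odds ratio of 2.14 in favour of the members (same exact test, adjusted p = 0.00166). That difference was not past the threshold with the summits of replicate 2 (odds ratio 1.62, same exact test, adjusted p = 0.104). Nor was it with HSF1 replicate 1 left out (1.40, adjusted p = 0.179 by the same exact test), with HSF1 replicate 2 left out (1.28, adjusted p = 0.130) or with MYC replicate 1 left out (1.46, adjusted p = 0.194). Of the intergenic windows, 56 of 288 held 5 or more copies of CATTC, counted over both strands and adjoining or not, against 0 of 269 members. Without such windows the odds ratio was 1.66 (same exact test, adjusted p = 0.0592).

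Within the members the element was spread over the whole range of HSF1 enrichment. With the members cut into 4 classes by mean fold enrichment, it lay within 100 bp of the summit in 14 of 68 sites of the lowest class (3.39 to 5.44), and in 18, 19 and 18 of 67 in the classes above. Among distal intragenic sites with MYC it was present in 3, 2, 3 and 10 sites of successive classes of 112 or 113 sites. Taking the whole interval, the 136 members with an element had median fold enrichments of 6.97 and 7.17 in the replicates, and the 133 without had 5.87 and 6.52. Those with an element were also wider, at a median of 568 bp against 469 bp.

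The elements lay beside the summits more often than under them. Counted from the summit of the stronger replicate, 23 elements had their centre within 50 bp, 57 at 50 to 100 bp, 40 at 100 to 150 bp and 14 at 150 to 200 bp. The next 50 bp held 2. With the summits of replicate 1 the first 4 classes held 26, 63, 34 and 14 elements, and with those of replicate 2 they held 19, 46, 46 and 15. At distal intragenic sites with MYC the classes held 4, 17, 30 and 12 elements. The summits of the replicates themselves were a median of 69 bp apart, and 163 of 269 members had them within 100 bp.

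**Figure D3:**
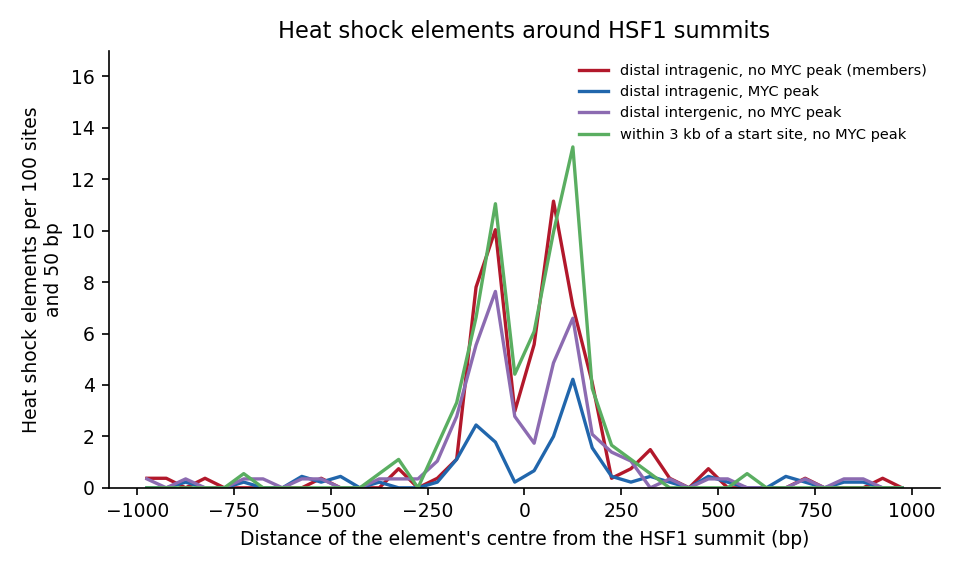
Heat shock elements per 100 sites in bins of 50 bp (vertical) against the distance of the element's centre from the HSF1 summit in bp (horizontal) for 4 sets of sites. In each set the curve has a peak on either side of the summit and a dip at it, and the members average 7.44 per bin within 100 bp against 0.112 at 500 to 1000 bp.

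Without any motif being named, the same letters led. All 8-base words were counted in the members' 200-bp windows, joined with their reverse complements, and ranked by the difference between the share of windows holding them and the share of the windows 1000 bp away. The first word was TTCCAGAA, in 51 of 269 members (19.0%) and 1.86% of the 538 flanking windows. It was followed by TTCTAGAA (41 members, 15.2% against 1.49%), GAACATTC (34 members) and, at the fifth place, GAAAATTC (24 members). At distal intragenic sites with MYC these words were found in 8%, 2.44%, 4.89% and 2% of 450 windows. Each is a pair of adjoining units of the heat shock element with the bases between them filled in.

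Those filled-in bases were far from even. Where a TTC unit is followed by GAA, the 2 bases between them were CA, or TG on the other strand, in 77 of 149 junctions in members (51.7%) and TA in 62 (41.6%), leaving 10 junctions for all other pairs. Where GAA is followed by TTC the bases were more mixed, with CA or TG in 26.0% and AA or TT in 18.8% of 154 junctions. Over the whole genomic space of the members 21587 elements of 3 or more units were found, and in 46.8% of them every TTC to GAA junction had CA, TG or TA. Among the 136 elements of that space that lay wholly in members the share was 92.6%, and among 71 that lay in distal intragenic sites with MYC it was 87.3%. Of 10105 elements with these junctions 126 lay in a member (1.25%), and of 11482 with other junctions 10 did (0.0871%). Most elements lay in no HSF1 peak, with 0.63% of all 21587 in a member and 1.62% in any HSF1 peak of either replicate. The junction shares count copies of a common sequence, described below, separately and were not recomputed without them.

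The number of units moved with the share as well. Of 21054 elements with 3 units, 126 (0.598%) lay in a member, of 496 with 4 units 5 (1.01%), of 32 with 5 units 3 (9.38%) and of 5 with 6 or more units 2. The row of the second GNG7 member, with 5 units inside the interval, runs 3 bases past its end as a row of 6 units, so it counts here among the rows of 6 or more that are not wholly in a member. Likewise the 3 units in the SLC35F3 member belong to a row of 4 units that ends 1 base past the interval. The classes above 4 units hold few elements. In any HSF1 peak of either replicate lay 1.52% of the elements with 3 units, 4.44% of those with 4 and 5 of the 32 with 5 units.

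**Figure D4:**
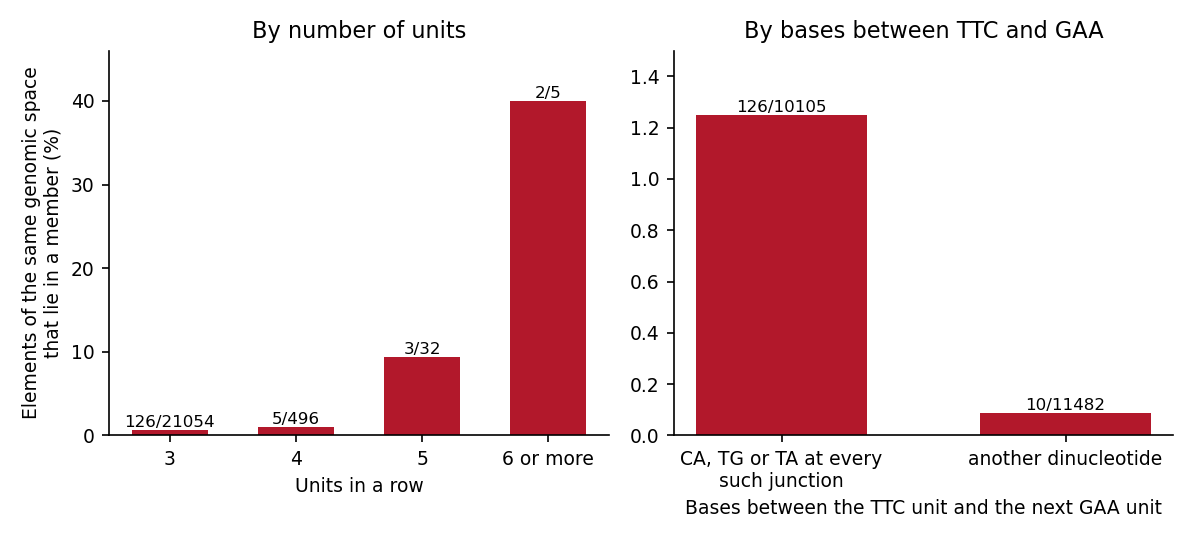
Percent of all heat shock elements in gene bodies more than 3 kb from a start site that lie in a member, by the number of units in a row (left) and by the 2 bases between a TTC unit and the next GAA unit (right), with counts above the bars. The share rises from 0.598% at 3 units to 9.38% at 5, and is 1.25% for CA, TG or TA against 0.0871% for other bases.

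Part of the elements were copies of a common sequence. The 25 bases on either side of each 3-unit element were compared base by base between all such elements of the reproducible HSF1 intervals, after turning each to start with GAA. A pair of elements from members matched at a median of 13 of the 50 flanking bases. In 40 of 129 member elements, however, 30 or more of the 50 bases matched another element, a limit chosen after the sequences had been seen. The largest such group held 27 elements in 26 members on 15 chromosomes, and in 21 of the 27 the element itself had the same 13 bases. Their fold enrichments ran from 3.30 to 12.5 in replicate 1 and from 3.48 to 24.7 in replicate 2, with medians of 5.70 and 8.78. Elements of this group were also in 7 distal intragenic sites with MYC, 12 intergenic sites without MYC and 5 sites without MYC near a start site.

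Other groups held near-identical copies on chromosome 1. At 5 lncRNA genes, among them LINC00623, LINC01138 and LINC00869, the element and 49 or 50 of its 50 flanking bases were the same, and likewise at NBPF8, NBPF10 and NBPF14 of the neuroblastoma breakpoint family. At NPEPPSP1 and NCAL1 all 50 flanking bases matched another HSF1 site. How reads that match several copies were placed is not given in the sources used here, so the values of these members are uncertain, and the copies cannot be read as separate sites. Without the sites whose element had alike flanks elsewhere, 20.3% of the remaining 231 members held the element within 100 bp of the summit, and the odds ratio against distal intragenic sites with MYC was still past the threshold.

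The AP-1 motif TGACTCA went the other way. It was within 100 bp of the summit in 28 of 269 members (10.4%), against 12.4% of all reproducible HSF1 sites, 3.35% of the windows 1000 bp away and 3.03% of the tiled windows. Distal intragenic sites with MYC held it in 89 of 450 cases (19.8%), and the odds ratio of members against them was 0.471 (Fisher's exact test, two-sided, adjusted p = 0.00166). With the summits of replicate 2 it was 0.732 (same exact test, adjusted p = 0.383). It was 0.737 with HSF1 replicate 1 left out (same exact test, adjusted p = 0.179) and 0.786 with MYC replicate 1 left out (same exact test, adjusted p = 0.415), so this difference depends on the summits and the lists used. Against distal intergenic sites without MYC (7.99%) the odds ratio was 1.34 and against sites without MYC near a start site (13.3%) it was 0.76 (same exact test, adjusted p = 0.454 for each). Both motifs were within 100 bp of the summit in 1 member. In 79 members neither the exact heat shock element nor the AP-1 motif occurred anywhere in the interval. For neither of these counts was the share over all reproducible HSF1 intervals computed, so nothing is read from them.

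Other motifs were counted for description only. The E-box CACGTG was in 0 of 269 member windows, which by the Wilson interval allows up to 1.41%, and in 4.22% of the 450 distal intragenic windows with MYC. It was in 1.76% of the tiled windows. GGAATG, the core of the TEAD motif, which overlaps a GAA unit that has G before it and TG after it, was in 19.0% of member windows, 28.4% of those with MYC and 10.6% of the tiled windows. The ETS motif CCGGAAG was in 1 member window (0.372%), against 2.89% of those with MYC and 0.396% of the tiled windows. The 2-unit forms GAANNTTC and TTCNNGAA, which are contained in the 3-unit element, were in 41.6% and 37.5% of members and in 18% and 13.8% of the distal intragenic sites with MYC.

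Members lay in introns in 252 of 269 cases (93.7%) and 17 midpoints fell in exons. Of these 17, 8 were in coding sequence, 8 in other exons of protein-coding genes and 1 in an exon of a lncRNA gene. Counting 1 gene per member, protein-coding genes first, 219 members lay in protein-coding genes and 50 in lncRNA genes, 255 genes in all. The protein-coding hosts had a median length of 180 kb against 27.5 kb for all 20033 protein-coding genes. A site inside a gene and far from its start sites is more likely to fall in a long gene, and the rule asked for both. Of 229 members in an intron of the canonical transcript 72 (31.4%) were in intron 1. The rule itself asked for gene bodies far from start sites. The shares of introns and of intron 1 in that genomic space were not computed, so nothing is read from either share.

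Along the host gene the members were spread out, at a median of 47.2% of the way from the 5′ end, with 84 in the first part, 102 in the middle and 83 in the last when genes are cut into 3 equal lengths. The nearest start site was a median of 13.7 kb away. It was 3 to 10 kb away for 101 members, 10 to 50 kb away for 134 and over 50 kb away for 34. The nearest MYC peak was a median of 21.6 kb away, with 9 members closer than 1000 bp and 45 farther than 100 kb.

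**Figure D5:**
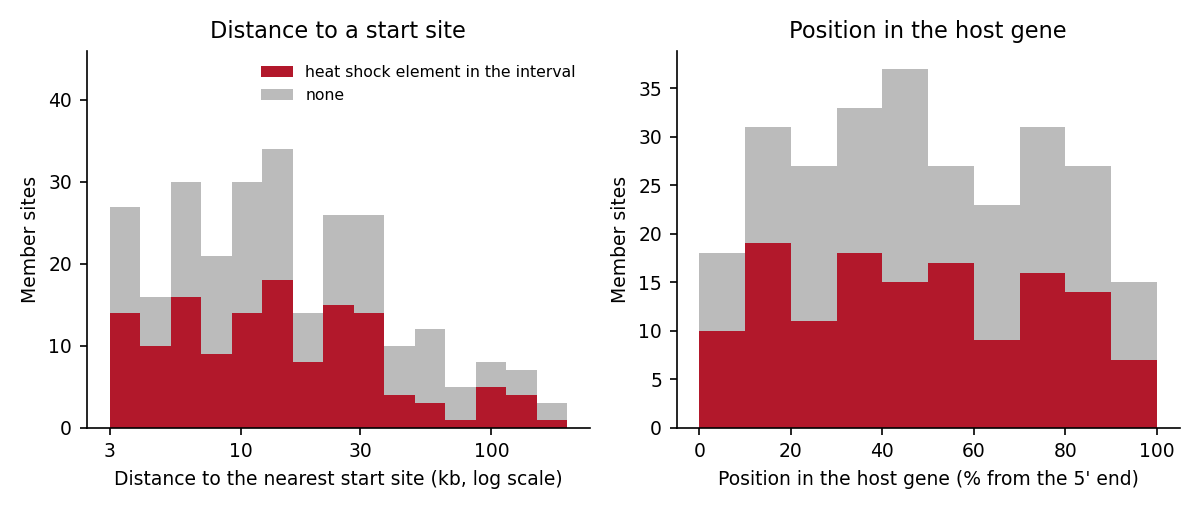
Number of members (vertical) by distance to the nearest start site in kb on a log scale (left) and by position in the host gene as percent of its length from the 5′ end (right), with members that hold a heat shock element in the interval in red and the others in grey. The distances centre on 13.7 kb, and sites with and without an element occur in each of the 10 bins of the host gene.

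Of 129 elements with 3 units, 60 had the strand with a pair of GAA units as the coding strand of the host gene. By chromosome, members numbered from 0 on Y and 2 on chromosome 22 to 40 on chromosome 1, which holds 14.9% of members and 8.09% of the genomic space. Per 100 Mb of that space there were 19.3 members in all, 54.2 on chromosome 19, 37.5 on chromosome 9 and 35.5 on chromosome 1, where near-identical copies are counted separately. Chromosome 8 had 21 members, of which 4 held an element in the interval, against 25 of 40 on chromosome 1 and 9 of 12 on chromosome 19. DNA copy number was not measured here, and its part in these densities was not tested.

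Within 1 Mb of another member lay 72 of the 269, and within 10 kb 14. RHBDD1, a rhomboid protease, was the one host gene with 3 members, and 12 genes had 2, among them GNG7, WNT3 and RNF32-DT. The 3 members of RHBDD1 had fold enrichments of 5.42 and 10.5, 6.87 and 5.21, and 5.00 and 5.86. The first of them, in intron 5, carries an element of the group with alike flanks, and the others hold no 3-unit element. An AP-1 motif was within 100 bp of the summit of the second, in intron 8.

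Chaperone genes did not host these sites. Of 106 genes of the HSP90, HSP70 and HSP110, J-domain, chaperonin and small heat shock protein families, 0 held a member, against 284 of all 38841 genes. A reproducible HSF1 site within 3 kb of a start site was present at 41 of the 106, with a MYC peak over it at 40 genes and without one at 2, HSPA6 and DNAJB6, where DNAJB6 had a site of each kind. Over all 38841 genes such a site was present at 1105, with a MYC peak at 920 and without one at 217. None of 16 genes for ubiquitin and protein clearance, 15 heat shock factors and HSF1 regulators or 18 genes of the ovarian carcinoma and Mullerian lineage held a member either. Against a background of 284 in 38841 genes, lists of this length would be likely to hold few members or none, so nothing is read from the 0.

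A list of 34 genes for the actin cytoskeleton, focal adhesions and junctions included a host of a member, MYH9, the heavy chain of non-muscle myosin IIA. Its fold enrichments were 5.00 and 7.17 in intron 3, with an element within 100 bp of the summit. Of 20 genes of AP-1 and the TEAD and YAP pathway 1 held a member, YAP1, a coactivator restrained by Hippo kinases, with 11.1 and 12.8 in intron 3 and an element 254 bp from the summit.

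Sites lay close to the thresholds of the rule on either side. The members closest to a start site were in PLEKHA2, DOCK4 and TRIM16L, with midpoints 3011.5, 3016.5 and 3064 bp away, and the nearest sites on the other side were in RHOF, GRIN2B and ST3GAL3 at 2989.5, 2889.5 and 2816.5 bp. Fold enrichments in replicate 1 were 6.96, 9.14 and 6.87 inside and 4.49, 4.33 and 7.30 outside. The members nearest to a MYC peak were in GLIS3, SDC2 and PLAC1, at gaps of 50, 126 and 176 bp. On the other side the smallest overlaps, 38, 44 and 57 bp, were in the lncRNA gene ENSG00000288755, in PIP5K1C and in MIR3681HG. PROM2, at 37.4 and 44.4 in the replicates and without a MYC peak, is not a member, because the midpoint of its site lies 609 bp from the start of one of its transcripts.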

How the data were processed

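CUT&RUN of crosslinked OVCAR8 cells was paired-end sequenced, and per the labels and the study's methods the authors trimmed the reads, aligned them with Bowtie 2 to GRCh38 and called peaks in each library with MACS 2.2.9.1 against the same IgG library, keeping 1 copy of duplicate fragments. The deposited lists give for each peak the pileup (signal) at its summit, −log10 of the p-value and the fold enrichment, which the authors' caller wrote as the ratio of fragments to IgG background. The fragment totals come from the file headers, and the lists hold peaks past 0.0001 (HSF1) or 1e-10 (MYC) only, so a missing peak is no measured 0.

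From these lists intervals were merged by 1 bp and placed on GENCODE 44 with Python 3.11.15 and pandas 2.3.3. The heat shock element (GAANNTTCNNGAA), AP-1 (TGACTCA) and other motifs were searched on both strands in GRCh38, 100 bp to either side of the summit of the replicate with the higher fold enrichment. The window is 1 per site. Motif shares were compared over sites with Fisher's exact test (scipy 1.17.1, two-sided, Benjamini-Hochberg over 6 tests, threshold 0.05), with 95% Wilson intervals that cover counting error only. The steps were tested on simulated data. Members named are the 15 with the highest mean fold enrichment, those with the longest elements, those of the gene lists and those at the thresholds of the rule. The members, motifs and gene lists were chosen with earlier results of these data known. Alternatives were stricter HSF1 peaks, single replicates, other overlap rules, distances, gene sets, summits and windows. Sequences were read from GRCh38 by coordinate. Some genes and sequences among the members are not reported here.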

Additional observations from a re-analysis of the deposited data

How the results depend on the processing

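Over 22 alternatives, 146 of 205 recomputed values kept their direction and side of the threshold or moved little. The heat shock element against distal intragenic sites with MYC stayed past the threshold in all 22, and AP-1 against intergenic sites stayed short of it in all 21. No paired analysis was possible because the tests compare classes of sites, not groups of libraries that could be paired. The number of members was 93 with HSF1 peaks at 1e-10, 1306 in the union of the HSF1 replicates, 494 when only MYC intervals of both replicates counted and 168 with start sites within 10 kb. It ran from 273 to 895 when 1 library was left out. The share in introns was 98.2% at 10 kb and 89.6% with 5′ ends of genes only. The median fold enrichment in replicate 1 was 6.92 at 1e-06, 9.13 at 1e-10, 4.98 in the union and 6.87 when MYC had to cover at least 0.5 of the interval, and 5.00 to 6.52 with 1 library left out. In replicate 2 it was 10.1 at 1e-10, 5.21 in the union and 5.21 to 6.99 with 1 library left out. The share of members with the element was 11.7% in the union, 15.6% with MYC in both replicates, 7.06% and 50.6% in windows of 50 and 250 bp to either side, 46.5% with 1 mismatch, and 12.7 to 25.6% with 1 library left out.

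Against intergenic sites the odds ratio for the element fell short of the threshold at 1e-10 (1.85), with MYC in both replicates (1.497), in protein-coding genes only (1.54) and with the summits of replicate 2 (1.62), and ran from 1.28 to 2.16 with 1 library left out. Against promoter-proximal sites it turned to 0.998 in the union, 0.882 with MYC in both replicates, 0.983 when MYC had to cover 0.5 of the interval, 1 at 10 kb, 0.964 in protein-coding genes, and 0.982 and 0.968 in windows of 50 and 250 bp, and ran from 0.673 to 1.35 with 1 library left out. For AP-1 against distal intragenic sites with MYC it fell short of the threshold at 1e-10 (0.439), with MYC in both replicates (0.816) and with the summits of replicate 2 (0.732), and ran from 0.483 to 0.786 with 1 library left out. For AP-1 against promoter-proximal sites it turned to 1.36 in the union, past the threshold (Fisher's exact test, two-sided, adjusted p = 0.0488). It turned to 1.02 with MYC in both replicates, 1.01 at 1 kb, 1.05 at 250 bp and 1.03 with the summits of replicate 2. With 1 library left out it ran from 0.780 to 1.28. The causes were not tested. In 3 alternatives chosen after seeing the data, the share with the element was 50.6% over the whole interval and 20.3% without alike flanks, its odds ratio was 0.944 against promoter-proximal sites without alike flanks and 1.66 against intergenic sites without CATTC windows, and AP-1 against promoter-proximal sites was 1.01 over the whole interval. The members had a median pileup of 12 fragments in each replicate, and whether depth limited the number of sites found was not tested.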
